A study of Mus musculus with 12 samples.

Results

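The translation initiation and elongation factors of the mouse were examined in RNA sequencing libraries of the spinal cord. Members were the protein-coding genes whose symbols begin with Eif1 to Eif6, Eef1 or Eef2, with the sex-linked pair Eif2s3x and Eif2s3y left out. This gave 62 genes of the 40912 gene IDs in the deposited count table. Of these, 59 had enough counts to be tested, among 15905 tested genes in all. The other 3 were Eif3j2 (1 to 7 counts per library), Eif4ebp3 (0 to 3 counts) and Eif4e1b (0 counts in all 12 libraries, which does not exclude a low level).

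All mice were at postnatal day 21 and carried a bacTRAP transgene, either Tg(Chat-EGFP/Rpl10a)DW167Htz or Tg(Snap25-EGFP/Rpl10a)JD362Jdd. These transgenes fuse EGFP to the ribosomal protein Rpl10a, so that ribosomes of the expressing cells can be pulled down with the RNA they carry. Chat sequences direct the tag to cholinergic neurons, which in the cord include motor neurons, and Snap25 sequences direct it to neurons in general. For each line there were 3 pulldown libraries (TRAP_Chat, TRAP_Snap25) and 3 libraries of the input, the RNA before pulldown (PreIP_Chat, PreIP_Snap25). The labels do not say whether replicates came from separate animals or from pools, so each p-value reflects the spread among the libraries at hand, which may be technical.

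Protein synthesis begins when the small ribosomal subunit, carrying initiator tRNA on eIF2, is brought to the capped end of an mRNA by the eIF4 factors and scans to a start codon. eIF3 organizes this complex, eIF1 and eIF1A guard the choice of the start codon, and eIF5 and eIF5B complete the joining of the large subunit. In elongation eEF1A delivers aminoacyl-tRNA, its partner eEF1B recharges it with GTP, eIF5A helps at slow peptide bonds and eEF2 moves the ribosome forward. Neurons adjust these steps through phosphorylation of eIF2, of the eIF4E-binding proteins and of eEF2, and Eef1a2 is known as the eEF1A isoform of mature neurons and muscle.

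Total counts ran from 10149346 to 20521699 per library, and the members held 0.507% to 0.959% of them. Ribosomal RNA of mitochondria took 23.2% to 40.7% of the counts in the inputs. In the pulldowns it took 6.67% in TRAP_Chat replicate 1 and 0.209% to 0.68% in the others. Levels are therefore given as CPM, counts set to a common library total, after scaling by the trimmed mean of M values (TMM), an edgeR method. On that scale the members summed to 6020 to 6270 CPM in PreIP_Chat, 6540 to 7380 in TRAP_Chat, 5910 to 6100 in PreIP_Snap25 and 6700 to 7750 in TRAP_Snap25. Each pulldown thus lay above its input in total, with no overlap of libraries. The median coefficient of variation of a member between replicates was 11.4% in PreIP_Chat, 18.4% in TRAP_Chat, 20.5% in PreIP_Snap25 and 29% in TRAP_Snap25. Replicate 3 of TRAP_Snap25 stood farthest from its group, and had the lowest level of 29 of the 59 members and the highest of 18.

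The makeup of the libraries differed between pulldown and input, read from lists of cell type markers. All 6 motor neuron markers rose in the Chat pulldown, with summed levels of 293 to 317 CPM before and 1840 to 2990 CPM after, and 1 of 6 rose in the Snap25 pulldown (115 to 184 and 231 to 476 CPM). Of 8 markers of neurons in general 3 rose in the Chat line and 1 in the Snap25 line, and 0 fell. Their log2 fold changes ran from -0.59 to 2.02 and from -0.08 to 0.84. For these marker counts the background over all tested genes was 12.6% higher and 14.3% lower in the Chat line. In the Snap25 line it was 9.69% and 12.7%. All 8 oligodendrocyte, 8 astrocyte, 8 microglia, 6 oligodendrocyte precursor and 5 red blood cell markers fell in both pulldowns. Of 8 vessel and fibroblast markers 4 fell in the Chat line and 5 in the Snap25 line. Of 5 muscle markers 2 fell in the Chat line and 0 in the Snap25 line. Summed oligodendrocyte markers went from 17000 to 22300 CPM in PreIP_Chat to 2140 to 5810 CPM in TRAP_Chat, and from 15900 to 20800 CPM to 1690 to 5180 CPM in the Snap25 line. Summed astrocyte markers went from 1690 to 1870 CPM to 203 to 443 CPM, and from 1570 to 2290 CPM to 171 to 428 CPM. Within TRAP_Chat, replicate 1 had the highest oligodendrocyte (5810 CPM) and astrocyte (443 CPM) sums. It had the lowest motor neuron (1840 CPM), microglia (15.3 CPM) and muscle (1.73 CPM) sums. Trem2, a microglial receptor, had 0 counts in 2 libraries of each pulldown and at most 4 in the others. These levels move with every change of a factor from input to pulldown, and their part in those changes was not tested. In such libraries, fewer cells of a type and less RNA per cell cannot be told apart.

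Both pulldowns were first set against their own inputs, which asks which factor mRNAs the tagged ribosomes carried above or below their share of the whole cord. In TRAP_Chat against PreIP_Chat, 12 of 59 members were higher and 0 lower at an adjusted p under 0.05 (edgeR quasi-likelihood test, Benjamini-Hochberg over all tested genes). The background was 12.6% of all tested genes higher and 14.3% lower (26.9% in either direction). In either direction 19 members had an unadjusted p under 0.05, where the background was 39%, and DESeq2 and limma voom also called 0 lower. Of all tested genes 16.8% were lower by DESeq2 and 17.9% by limma voom. The median log2 fold change of the members was 0.26, against -0.06 over all tested genes. Levels did not overlap between the groups for 24 members that were higher, with a background of 21.8%, and for 5 that were lower, with a background of 26.1%. The number called rested on each PreIP_Chat library. Without replicate 1, 4 members were higher (6.78%, against 7.97% of all tested genes in that fit), without replicate 2 it was 3 (5.08% against 7.23%) and without replicate 3 it was 6 (10.2% against 7.99%). The members' share was thus below that of all tested genes in the fits without replicate 1 or 2, and 2 members became lower without TRAP_Snap25 replicate 3 (Eef1a2 and Eef2). In the fit without TRAP_Snap25 replicate 3, 16.7% of all tested genes were lower.

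In TRAP_Snap25 against PreIP_Snap25, 5 of 59 members were higher and 1 lower, where the background was 9.69% higher and 12.7% lower (22.4% in either direction). In all, 20 members had an unadjusted p under 0.05 (background 35.3%). The members' median log2 fold change was 0.27, against -0.00 over all tested genes. Levels did not overlap for 12 members that were higher (background 16.6%) and 4 that were lower (background 21.4%). The number of higher members was 2 without PreIP_Snap25 replicate 1, PreIP_Snap25 replicate 2 or TRAP_Snap25 replicate 2, and 11 without TRAP_Snap25 replicate 3. All tested genes were then higher in 4.48%, 4.1%, 5.74% and 10.2% of cases. The 1 lower member became 0 without PreIP_Snap25 replicate 2, 2 without TRAP_Chat replicate 3 or TRAP_Snap25 replicate 1 and 3 without TRAP_Snap25 replicate 3. In these fits 7.89%, 12.5%, 11% and 14% of all tested genes were lower. With each pulldown paired to its input by a replicate block, 6 were higher and 3 lower (Eif3a, Eif4ebp2, Eif5b), where all tested genes were 9.71% higher and 13.3% lower. Eif1b and Eif5a were called higher in both lines, which is 16.7% of the 12 called in the Chat line and 40% of the 5 called in the Snap25 line. The matching share over all tested genes was not computed, so whether this overlap is large or small is not known.

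**Figure D1:**
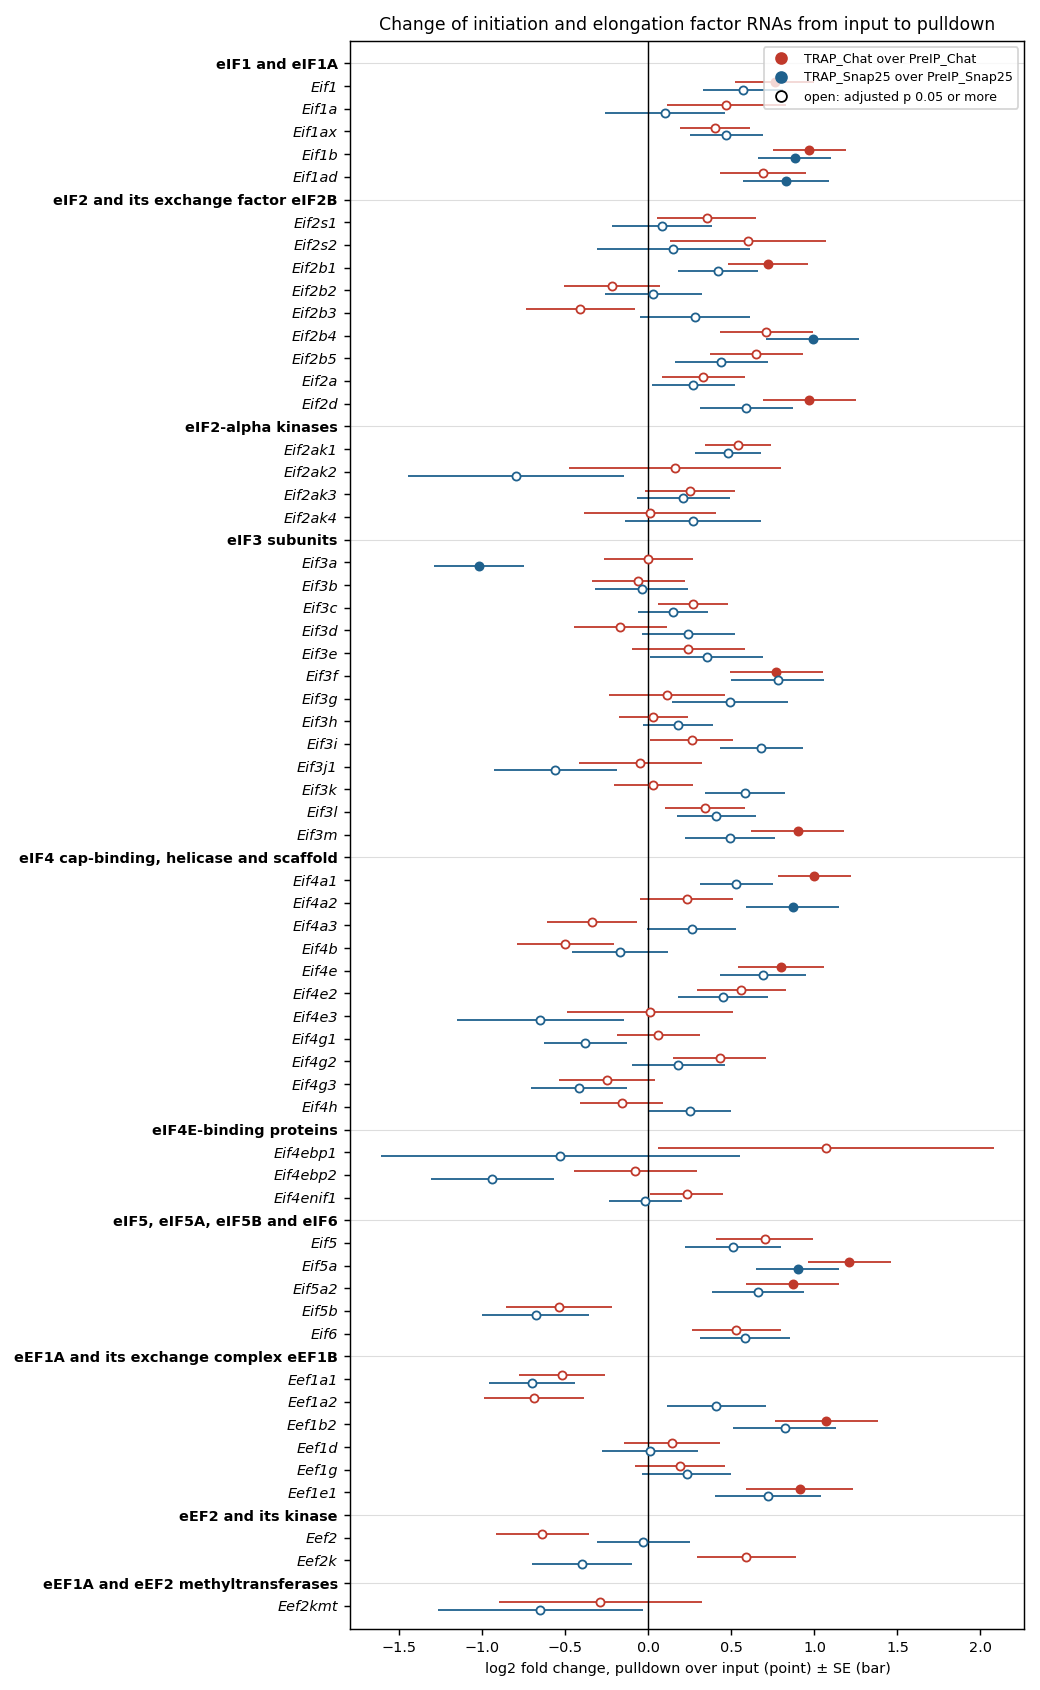
Log2 fold change of pulldown over input (x axis, points with SE bars) for the 59 tested initiation and elongation factors, grouped by role, in the Chat line (red) and the Snap25 line (blue). Filled points passed an adjusted p of 0.05: 12 higher in the Chat line, and 5 higher and 1 lower (Eif3a) in the Snap25 line.

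**Figure D2:**
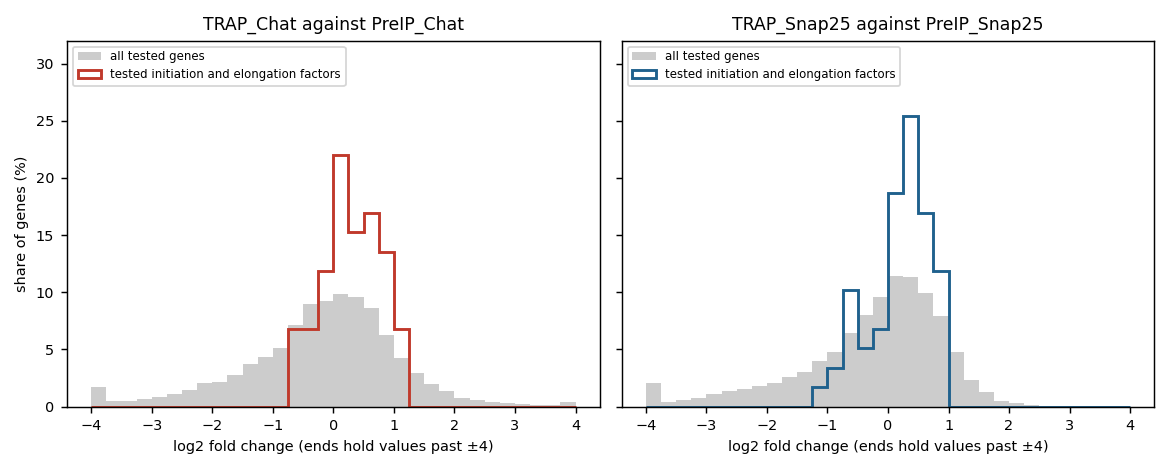
Share of genes (y axis, percent) by log2 fold change of pulldown over input (x axis, bins of 0.25) for all tested genes (grey) and for the 59 tested factors (coloured outline). The factors lay between -0.69 and 1.21 in the Chat line and between -1.02 and 0.99 in the Snap25 line, with medians of 0.26 and 0.27.

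Of the 5 genes of eIF1, of eIF1A and of the related Eif1ad, 2 rose in the Chat pulldown and 2 in the Snap25 pulldown, with median log2 fold changes of 0.69 and 0.57. For this and the other counts per role below, the background was 12.6% higher and 14.3% lower in the Chat line. In the Snap25 line it was 9.69% and 12.7%. Eif1b, a close copy of Eif1, measured 103, 96.2 and 99 CPM in PreIP_Chat and 208, 195 and 180 in TRAP_Chat. Its Snap25 levels were 93.2, 89.3 and 128 CPM in the input and 211, 203 and 156 in the pulldown. In both lines every pulldown library lay above every input library. Eif1b rose by a log2 fold change of 0.97 ± 0.22 (SE) in the Chat line (1.95-fold, adjusted p = 0.00404) and 0.88 ± 0.22 in the Snap25 line (1.84-fold, adjusted p = 0.00871). These calls held without any 1 of the 12 libraries.

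Eif1, which keeps the scanning ribosome open until a start codon is met, measured 75.5, 62.6 and 76.1 CPM in PreIP_Chat and 146, 119 and 98.4 in TRAP_Chat, with no overlap. It rose by 0.76 ± 0.24 on the log2 scale in that line (adjusted p = 0.027). Without TRAP_Chat replicate 1 the value was 0.60 (adjusted p = 0.106), and without PreIP_Chat replicate 1, 2 or 3 the adjusted p was 0.0675, 0.121 and 0.0649. For the Snap25 line, Eif1 had a log2 fold change of 0.57 ± 0.24, which did not pass (adjusted p = 0.0977), or 0.76 (adjusted p = 0.0212) without TRAP_Snap25 replicate 3. Eif1ad, a protein with an eIF1A-like domain, measured 30.4, 37.2 and 37.6 CPM in PreIP_Snap25 and 56.1, 80.4 and 49.9 in TRAP_Snap25. It rose by 0.83 ± 0.26 (adjusted p = 0.033). That call was lost without PreIP_Chat replicate 3, any 1 of the PreIP_Snap25 libraries or TRAP_Snap25 replicate 2, with an adjusted p up to 0.162 and a value down to 0.59, and when only the 6 Snap25 libraries were fitted (adjusted p = 0.0618). In the Chat line Eif1ad had a value of 0.69 ± 0.26 (adjusted p = 0.0618).

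Of the 9 genes of eIF2, of its exchange factor eIF2B and of the related Eif2a and Eif2d, 2 rose in the Chat pulldown and 1 in the Snap25 pulldown (medians 0.60 and 0.28). Eif2d, which can place initiator tRNA without eIF2, measured 16.8, 13.2 and 16.2 CPM in PreIP_Chat and 27.1, 37.7 and 26.2 in TRAP_Chat. Its groups did not overlap, and it rose by 0.97 ± 0.28 (1.96-fold, adjusted p = 0.0182). Without PreIP_Chat replicate 2 or 3 or TRAP_Chat replicate 2 the adjusted p was 0.0888, 0.0531 and 0.061. Eif2b1, the alpha subunit of eIF2B, measured 29.9, 27.8 and 34.1 CPM in PreIP_Chat and 41.2, 57.6 and 53.1 in TRAP_Chat, and rose by 0.72 ± 0.24 (adjusted p = 0.0359). This call was lost without any 1 of the PreIP_Chat libraries or without TRAP_Chat replicate 2 or 3, with an adjusted p up to 0.138, and with no filter on low counts (adjusted p = 0.0859). Eif2b5, the catalytic subunit, measured 39.9, 52 and 71.9 CPM in PreIP_Chat and 79.2, 92.3 and 86.3 in TRAP_Chat, with no overlap (0.65 ± 0.28, adjusted p = 0.0924). It passed with the replicate block (0.69, adjusted p = 0.0419) and with only those 6 libraries fitted (adjusted p = 0.0433).

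Eif2b4, the delta subunit, was the eIF2B gene called in the Snap25 line. It measured 18, 10.9 and 18.7 CPM in PreIP_Snap25 and 30, 38.2 and 26.1 in TRAP_Snap25, with no overlap. The rise was 0.99 ± 0.28 (1.98-fold, adjusted p = 0.0193), or 0.77 (adjusted p = 0.103) without PreIP_Snap25 replicate 2 and 0.81 (adjusted p = 0.08) without TRAP_Snap25 replicate 2. With only the 6 Snap25 libraries fitted the adjusted p was 0.0558. In the Chat line the same gene had a value of 0.71 ± 0.28 (adjusted p = 0.0685). Eif2s1, the eIF2 subunit that the stress kinases phosphorylate, measured 18.3, 20.3 and 29.3 CPM in PreIP_Chat and 29, 20.7 and 36.8 in TRAP_Chat. It measured 26.7, 34.2 and 29 CPM in PreIP_Snap25 and 38.4, 36.7 and 19.8 in TRAP_Snap25. Its libraries overlapped in both lines, with log2 fold changes of 0.35 ± 0.30 (adjusted p = 0.418) and 0.08 ± 0.30 (adjusted p = 0.881).

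The 4 kinases that phosphorylate eIF2 respond to haem shortage (Eif2ak1), double-stranded RNA (Eif2ak2), stress of the endoplasmic reticulum (Eif2ak3) and amino acid shortage (Eif2ak4). None of the 4 passed in either line by edgeR, and 1 in each line, Eif2ak1, had an unadjusted p under 0.05 (medians of the 4 were 0.20 and 0.24). Eif2ak1 measured 70.1, 81.1 and 71 CPM in PreIP_Chat and 114, 108 and 102 in TRAP_Chat, and 78, 75.6 and 85.9 in PreIP_Snap25 and 116, 119 and 98.8 in TRAP_Snap25. Every pulldown library lay above every input library. Its log2 fold change in the Chat line was 0.54 ± 0.20 with an adjusted p of 0.0501, just short of the threshold, and 0.018 by DESeq2, 0.0427 by limma voom, 0.0456 with RLE scaling, 0.033 with only the 6 Chat libraries fitted and 0.0321 without TRAP_Snap25 replicate 3. The Snap25 value was 0.48 ± 0.20 (adjusted p = 0.0885).

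eIF3 has more subunits than any other initiation factor, and 2 of its 13 tested genes rose in the Chat pulldown while 1 fell in the Snap25 pulldown (medians 0.11 and 0.35). Eif3m measured 19.4, 19.5 and 26.6 CPM in PreIP_Chat and 36.3, 42.8 and 42.9 in TRAP_Chat. It rose by 0.90 ± 0.28 (1.86-fold, adjusted p = 0.0233), and without PreIP_Chat replicate 1 or 2 or TRAP_Chat replicate 3 the adjusted p was 0.0959, 0.0997 and 0.0623. Eif3f measured 126, 114 and 112 CPM in PreIP_Chat and 261, 196 and 144 in TRAP_Chat. Its rise of 0.77 ± 0.28 lay close to the threshold (adjusted p = 0.0474). It lost the call without any 1 of 8 libraries, which were the 6 inputs and TRAP_Chat replicates 1 and 2, with a value of 0.53 (adjusted p = 0.198) without TRAP_Chat replicate 1. Eif3f in the Snap25 line had nearly the same value, 0.78 ± 0.28 (adjusted p = 0.0521), and no overlap between groups. It passed by DESeq2 (adjusted p = 0.0347), with no filter on low counts (0.0408), with protein-coding nuclear genes only (0.0451) and without TRAP_Chat replicate 1 (0.0445) or 3 (0.049) or TRAP_Snap25 replicate 1 (0.0352) or 3 (0.0301).

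Eif3a, the largest subunit and a scaffold of the complex, was the member that fell in the Snap25 line. It measured 154, 218 and 140 CPM in PreIP_Snap25 and 79.6, 112 and 60.2 in TRAP_Snap25, so each pulldown library was below each input library. It fell by 1.02 ± 0.27 on the log2 scale (2.02-fold, adjusted p = 0.0143). Without PreIP_Snap25 replicate 2, the highest of the inputs, the log2 fold change was -0.81 (adjusted p = 0.0783). In the Chat line the levels overlapped, with 121, 101 and 120 CPM before and 149, 103 and 88.8 CPM after the pulldown, and the log2 fold change was -0.00 ± 0.27. The difference between the lines in this change was 1.01 ± 0.38 and did not pass (adjusted p = 0.289). Every PreIP_Snap25 library lay above every PreIP_Chat library, as did 3.85% of all tested genes. The log2 difference of -0.58 ± 0.27 for Chat against Snap25 did not pass (unadjusted p = 0.0475, adjusted p = 1), so the inputs are not shown to differ.

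Of the 11 tested genes of the eIF4 cap-binding, helicase and scaffold factors, 2 rose in the Chat pulldown and 1 in the Snap25 pulldown (medians 0.06 and 0.25). Eif4a1, the helicase that opens structure near the cap, measured 47, 38.3 and 50.4 CPM in PreIP_Chat and 102, 85.8 and 82.4 in TRAP_Chat. It rose by 1.0 ± 0.22 (1.99-fold, adjusted p = 0.00408), and the call held without any 1 of the 12 libraries. Eif4a1 in the Snap25 line measured 56.2, 70.6 and 73.8 CPM before and 89.8, 84 and 115 after the pulldown, again with no overlap, but the value of 0.53 ± 0.22 did not pass (adjusted p = 0.0988). The difference between the lines in this change was 0.47 ± 0.31 and did not pass either (adjusted p = 0.639). The means of the pulldowns were 90.2 ± 10.7 CPM and 96.3 ± 16.6 CPM, and those of the inputs 45.2 ± 6.27 CPM in the Chat line and 66.9 ± 9.39 CPM in the Snap25 line (SD, n = 3).

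Eif4a2, the paralog of Eif4a1 that is abundant in brain, was the helicase called in the Snap25 line. It measured 214, 302 and 235 CPM in PreIP_Snap25 and 531, 531 and 314 in TRAP_Snap25, with replicate 3 of the pulldown just above the highest input. It rose by 0.87 ± 0.28 (1.83-fold, adjusted p = 0.0325), and the call was lost without PreIP_Chat replicate 2, PreIP_Snap25 replicate 1 or 3, or TRAP_Snap25 replicate 1 or 2, with an adjusted p up to 0.129, and when only the 6 Snap25 libraries were fitted (0.0598). In the Chat line the levels overlapped, at 175, 241 and 323 CPM in the input and 230, 312 and 325 in the pulldown (0.23 ± 0.28, adjusted p = 0.577). Eif4e, which binds the cap itself, measured 25.5, 24.6 and 36.8 CPM in PreIP_Chat and 46.7, 47.8 and 56.6 in TRAP_Chat. It rose by 0.80 ± 0.26 (1.74-fold, adjusted p = 0.0315), and without PreIP_Chat replicate 1 or 2 or TRAP_Chat replicate 3 the adjusted p was 0.124, 0.137 and 0.0978. Eif4e in the Snap25 line went from 27.1, 38.7 and 38.7 CPM to 62.2, 65.6 and 40.7 CPM (0.69 ± 0.26, adjusted p = 0.0658). That value passed by DESeq2 (adjusted p = 0.0466) and without TRAP_Snap25 replicate 3 (adjusted p = 0.0198).

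Eif4g1, the scaffold that joins the cap-binding protein to the helicase, did not pass in either line. It measured 127, 118 and 121 CPM in PreIP_Chat and 99.4, 141 and 140 in TRAP_Chat (0.06 ± 0.25, adjusted p = 0.89, and -0.03 without TRAP_Chat replicate 3). In PreIP_Snap25 it measured 155, 105 and 79.3 CPM and in TRAP_Snap25 101, 72.8 and 86.8 (-0.38 ± 0.25, adjusted p = 0.306). Eif4b, a cofactor of the helicase, lay lower in every TRAP_Chat library (121, 147 and 158 CPM) than in every PreIP_Chat library (194, 170 and 240 CPM), but its log2 fold change of -0.50 ± 0.29 did not pass (adjusted p = 0.207).

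Of the 5 genes of eIF5, eIF5A, eIF5B and eIF6, 2 rose in the Chat pulldown and 1 in the Snap25 pulldown (medians 0.70 and 0.58). The genes called were those of eIF5A, and Eif5, Eif5b and Eif6 did not pass in either line. Eif5a, the protein that carries the hypusine modification and helps the ribosome past stalling peptides, measured 244, 198 and 206 CPM in PreIP_Chat and 419, 671 and 412 in TRAP_Chat. It measured 204, 165 and 213 CPM in PreIP_Snap25 and 428, 268 and 388 in TRAP_Snap25. Pulldown and input did not overlap in either line. The rise of 1.21 ± 0.25 in the Chat line (2.32-fold, adjusted p = 0.00274) was the largest of any of the 59 members there, and its call held without any 1 of the 12 libraries. The rise in the Snap25 line was 0.90 ± 0.25 (1.86-fold, adjusted p = 0.0186), and without PreIP_Snap25 replicate 1 or 2 or TRAP_Snap25 replicate 1 the adjusted p was 0.0525, 0.0879 and 0.07.

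Its paralog Eif5a2 measured 54.4, 78.8 and 83.4 CPM in PreIP_Chat and 108, 162 and 128 in TRAP_Chat, and rose by 0.87 ± 0.28 (1.83-fold, adjusted p = 0.0279). That call was lost without PreIP_Chat replicate 1 or 2 or TRAP_Chat replicate 2 or 3, with an adjusted p up to 0.135. Eif5a2 in the Snap25 line went from 70.1, 88.3 and 70 CPM to 167, 116 and 78.1 CPM (0.66 ± 0.28, adjusted p = 0.0974), and the overlap came from replicate 3 of the pulldown. Without that library the value was 0.89 (adjusted p = 0.02). Eif5b, the GTPase that joins the ribosomal subunits, had negative values in both lines, with log2 fold changes of -0.54 ± 0.32 (adjusted p = 0.229) and -0.68 ± 0.32 (adjusted p = 0.138). It passed in the Snap25 line without TRAP_Snap25 replicate 1 (-1.07, adjusted p = 0.0362) and with the replicate block (-0.80, adjusted p = 0.03).

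Of the 6 eEF1 genes, 2 rose in the Chat pulldown by edgeR and 0 were called in the Snap25 pulldown, where 3 had an unadjusted p under 0.05, DESeq2 called 1 higher and 1 lower and limma voom 1 lower (medians 0.16 and 0.32). Eef1b2, the exchange subunit that reloads eEF1A with GTP, measured 115, 102 and 121 CPM in PreIP_Chat and 283, 211 and 218 in TRAP_Chat. It rose by 1.07 ± 0.31 (2.1-fold, adjusted p = 0.0188), and without PreIP_Chat replicate 1, 2 or 3 or TRAP_Chat replicate 1 the adjusted p was 0.0587, 0.0777, 0.0514 and 0.0624. Its Snap25 levels were 102, 128 and 156 CPM before and 171, 374 and 134 CPM after the pulldown, with overlap through replicate 3 (0.82 ± 0.31, adjusted p = 0.0709). Eef1e1, which belongs to the aminoacyl-tRNA synthetase complex and is named for its likeness to the eEF1 subunits, measured 9.04, 10.5 and 13.2 CPM in PreIP_Chat and 23.2, 17.6 and 20.5 in TRAP_Chat. It rose by 0.91 ± 0.32 (adjusted p = 0.0438), a call lost without any 1 of the PreIP_Chat libraries, PreIP_Snap25 replicate 2, TRAP_Chat replicate 1 or 3, or TRAP_Snap25 replicate 1 (adjusted p up to 0.159), with the replicate block (adjusted p = 0.0618) and with no filter on low counts (adjusted p = 0.065).

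Neither eEF1A gene passed in either line. Eef1a1, the widespread isoform, measured 276, 298 and 318 CPM in PreIP_Chat and 262, 231 and 132 in TRAP_Chat. It measured 223, 248 and 262 CPM in PreIP_Snap25 and 155, 183 and 113 in TRAP_Snap25. Each pulldown library was below each input library of its line, yet the log2 fold changes of -0.52 ± 0.26 (adjusted p = 0.15) and -0.70 ± 0.26 (adjusted p = 0.0622) did not pass by edgeR. The latter passed by DESeq2 (adjusted p = 0.0388), by limma voom (adjusted p = 0.043) and without TRAP_Chat replicate 3 (adjusted p = 0.0354). Eef1a2 measured 390, 326 and 287 CPM in PreIP_Chat and 181, 239 and 201 in TRAP_Chat, again all lower (-0.69 ± 0.30, adjusted p = 0.0939). This value passed when only those 6 libraries were fitted (adjusted p = 0.0199) and without TRAP_Snap25 replicate 3 (adjusted p = 0.0441). In the Snap25 line Eef1a2 measured 412, 215 and 224 CPM before and 271, 324 and 539 CPM after the pulldown, which overlap (0.41 ± 0.30, adjusted p = 0.339). Summed muscle markers ranged from 4.27 to 299 CPM in PreIP_Chat, where replicate 2 was highest, and from 1.62 to 49.2 CPM in all other groups, and their part in the Eef1a2 levels was not tested.

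Eef2, which moves the ribosome along the mRNA, showed a similar pattern. It measured 1120, 978 and 925 CPM in PreIP_Chat and 718, 616 and 599 in TRAP_Chat, with no overlap and a log2 fold change of -0.64 ± 0.28 that did not pass (adjusted p = 0.0983). With only those 6 libraries fitted the adjusted p was 0.0238, and without TRAP_Snap25 replicate 3 it was 0.0283. In the Snap25 line Eef2 measured 946, 615 and 816 CPM before and 524, 647 and 1150 CPM after the pulldown. The log2 fold change of -0.03 ± 0.28 changed its sign without PreIP_Snap25 replicate 1 (0.11), TRAP_Snap25 replicate 1 (0.18) or TRAP_Snap25 replicate 2 (0.07). Eef2k, the kinase that inhibits eEF2, measured 13.5, 14.1 and 13.5 CPM in PreIP_Chat and 15.4, 18.9 and 27.5 in TRAP_Chat (0.59 ± 0.30, adjusted p = 0.153). It measured 15.9, 14.1 and 10.8 CPM in PreIP_Snap25 and 8.67, 10 and 12.3 in TRAP_Snap25 (-0.40 ± 0.30, adjusted p = 0.371). Eef2kmt, which methylates eEF2, had values of -0.29 and -0.65 and did not pass in either line.

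Many elongation factor mRNAs belong to the 5′TOP class, which begin with a run of pyrimidines and whose translation follows mTORC1. The first bases around the annotated transcription start are shown for 4 genes often named in this class and for Eef1a2 and Eif1b, to let their starts be set beside their changes. Each line gives 30 bases, 8 before and 22 after the RefSeq start in GRCm38.p6, read 5′ to 3′ on the strand of the gene, with the longest run of C and T in capitals. Where runs tie in length, the first is in capitals. The Eef1a1 window lies at chr9:78481703-78481732 on the minus strand, Eef1a2 at chr2:181156994-181157023 on the minus strand, Eef1b2 at chr1:63176823-63176852 on the plus strand, Eef2 at chr10:81176623-81176652 on the plus strand, Eif3f at chr7:108934407-108934436 on the plus strand and Eif1b at chr9:120492598-120492627 on the plus strand.
Eef1a1: ccgCCCTCTTCCCgagggtgggggagaacg
Eef2: ggccgggcgttgacgtcagcggTCTCTTCC
Eif3f: taggCTCTCTCTCTTTCTCggcaagatggc
Eef1b2: gcagTTCCgccggaagtagccgaggccttg
Eef1a2: tggtctgcgttctcgctcactggTTCTCTC
Eif1b: gcggggctaaatacgcggcgccggccaTTT

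The longest pyrimidine run was 15 bases in Eif3f, 10 in Eef1a1, 8 in Eef2, 7 in Eef1a2, 4 in Eef1b2 and 3 in Eif1b. Runs at least as long were found in the same window of 0.813%, 4.37%, 11.1%, 17.6%, 68.3% and 88.1% of the 32851 starts in the RefSeq table. The run began 5 bases before the start in Eef1a1 and 4 before it in Eif3f. In Eef1b2 the marked run also began 4 before the start, but a later run as long (cctt) lies near the end of the window. In Eef2, Eef1a2 and Eif1b the run began at base 15, 16 and 20 counted from the start. There it reached the end of the window, so its full length is not known. A run in this window describes letters only and shows no start used in these cells. Of 8 members known as 5′TOP genes (Eef1a1, Eef1b2, Eef1d, Eef1g, Eef2, Eif3e, Eif3f, Eif3h), 2 rose in the Chat pulldown, 0 fell there, and 0 were called in the Snap25 pulldown. In each line 3 of the 8 had an unadjusted p under 0.05, where the background was 39% in the Chat line and 35.3% in the Snap25 line. Their median log2 fold changes were 0.16 and 0.20, with Eef2 lowest (-0.64) and Eef1b2 highest (1.07) in the Chat line and Eef1a1 lowest (-0.70) and Eef1b2 highest (0.82) in the Snap25 line. Of the printed genes, Eif3f and Eef1b2 were higher in the Chat pulldown, while Eef1a1 and Eef2 had negative values there that did not pass. Whether these changes go with the run was not tested.

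**Figure D3:**
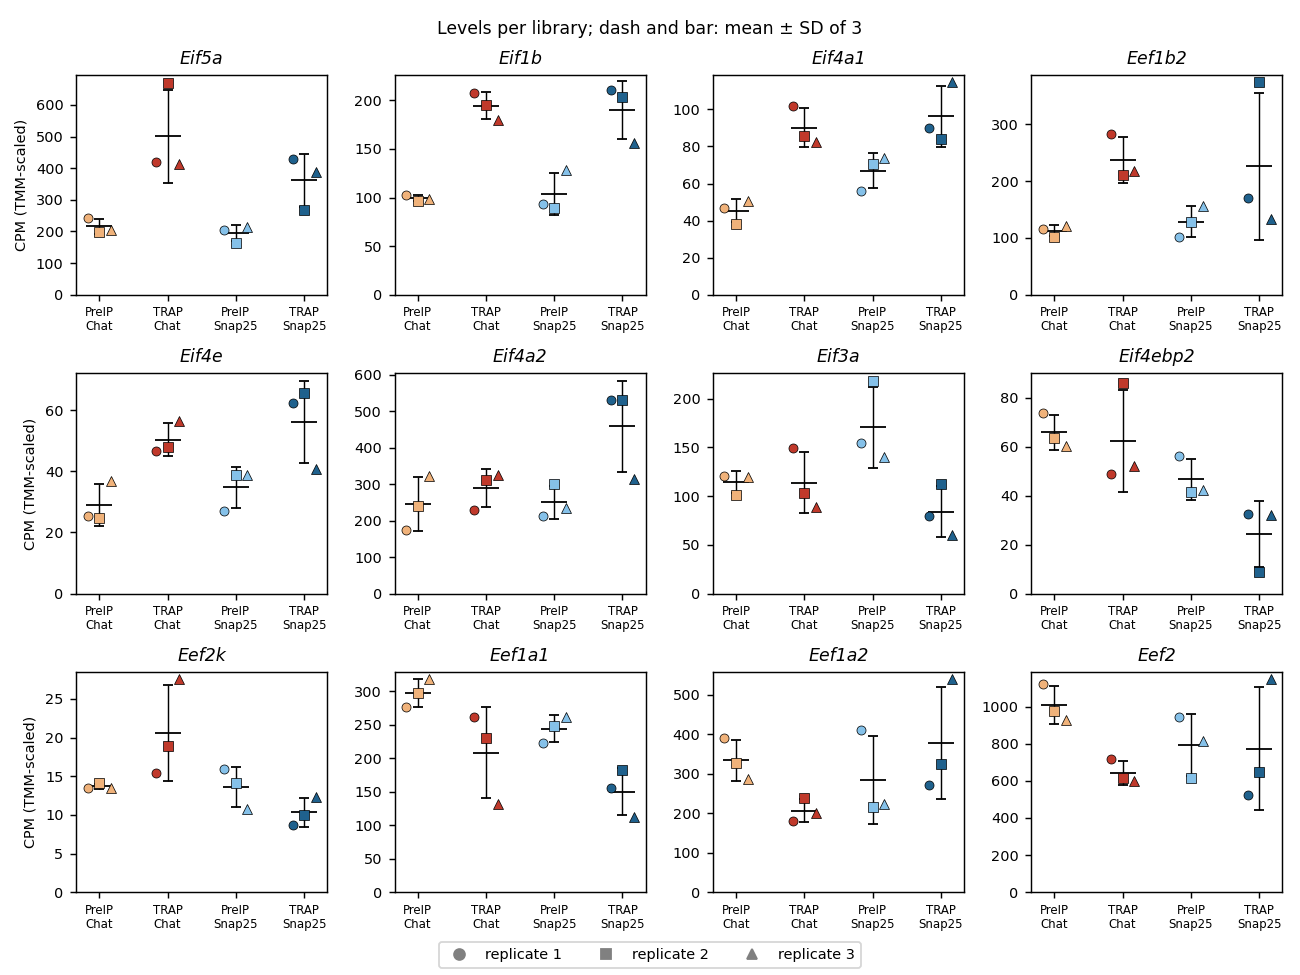
Levels of 12 factors in each library (y axis, TMM-scaled CPM from 0) in the 4 groups (x axis), with symbols for the replicates and dash and bar for the mean ± SD of 3. Eif5a and Eif1b lie above their input in both lines, and Eef1a2 and Eef2 lie below their input in the Chat line and overlap it in the Snap25 line. The Eif4a1 input levels lie higher in the Snap25 line, a difference that did not pass.

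Levels between genes were compared per kilobase of exon. Eef2 had the highest mean CPM per kilobase of the tested members in PreIP_Chat (303 ± 30.3), PreIP_Snap25 (238 ± 50.2) and TRAP_Snap25 (233 ± 99.8), and Eef1a2 the next highest (160 ± 25, 136 ± 53.4 and 181 ± 68.1). In TRAP_Chat the order was Eif5a (211 ± 62.1), Eef2 (194 ± 19.4), Eif1b (173 ± 12.5) and Eef1a2 (99.3 ± 14.1), of which the first 3 lie within their spread (SD, n = 3). Eef1a1 was at place 3 in both inputs, at place 7 in TRAP_Chat and at place 13 in TRAP_Snap25.

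The pulldowns of the lines were then compared with each other, which sets cholinergic neurons against neurons in general. Of 59 members, 1 was higher in TRAP_Chat and 0 lower, with a background of 3.97% higher and 2.77% lower (6.75% in either direction). In either direction 7 members had an unadjusted p under 0.05 (background 21.7%). DESeq2 called 2 higher and 1 lower, and limma voom 2 higher and 0 lower. All tested genes were then 6.46% higher and 4.69% lower by DESeq2, and 4.28% and 2.88% by limma voom. The median log2 difference of the members was 0.01, the same as over all tested genes. Levels did not overlap for 3 members higher in TRAP_Chat (Eef2k, Eif2ak3, Eif4ebp2; background 10.3%) and 3 lower (Eef1a2, Eif2b3, Eif3k; background 9.47%).

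The member called was Eif4ebp2, the main eIF4E-binding protein of the brain, which blocks eIF4E until mTORC1 phosphorylates it. It measured 48.7, 86.2 and 52.1 CPM in TRAP_Chat and 32.4, 8.93 and 32 in TRAP_Snap25. Replicate 2 was the highest in the Chat pulldown and by far the lowest in the Snap25 pulldown. The difference was 1.35 ± 0.38 on the log2 scale (2.56-fold, adjusted p = 0.0386). It did not pass when only those 6 libraries were fitted (1.33, adjusted p = 0.145), nor in 9 of 12 fits without 1 library. Those 9 left out any of the 6 inputs (adjusted p 0.0518 to 0.0583), TRAP_Chat replicate 2 (1.08, adjusted p = 0.133) or 3 (1.47, adjusted p = 0.0521), or TRAP_Snap25 replicate 2 (0.95, adjusted p = 0.0774). The inputs held 73.8, 63.8 and 60.2 CPM in the Chat line and 56.3, 41.4 and 42.2 in the Snap25 line, which do not overlap either (0.50 ± 0.37, adjusted p = 1). From input to pulldown Eif4ebp2 had a log2 fold change of -0.08 ± 0.37 in the Chat line and -0.94 ± 0.37 in the Snap25 line (adjusted p = 0.891 and 0.0815). The Snap25 value passed by limma voom (-1.23, adjusted p = 0.0258), with no filter on low counts (adjusted p = 0.0111), with the replicate block (-1.12, adjusted p = 0.0258) and without TRAP_Snap25 replicate 3 (-1.19, adjusted p = 0.0437).

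Its relative Eif4ebp1 was close to the limit of detection. It had 20, 30 and 107 counts in TRAP_Chat and 1, 0 and 20 in TRAP_Snap25, which overlap through replicate 3 of the latter. The fitted difference of 2.20 ± 1.09 did not pass (adjusted p = 0.252). It passed by limma voom (adjusted p = 0.0375) and without TRAP_Snap25 replicate 3 (adjusted p = 0.00498), where the other libraries of that group hold at most 1 count.

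Eef2k and Eef1a2 stood on opposite sides of this comparison without passing. Eef2k had 15.4, 18.9 and 27.5 CPM in TRAP_Chat against 8.67, 10 and 12.3 in TRAP_Snap25, all higher, with a log2 difference of 1.0 ± 0.30 (adjusted p = 0.0582). It passed by DESeq2 (adjusted p = 0.0151) and without TRAP_Chat replicate 1 (adjusted p = 0.0419) or TRAP_Snap25 replicate 3 (adjusted p = 0.0396). Eef1a2 had 181, 239 and 201 CPM in TRAP_Chat against 271, 324 and 539 in TRAP_Snap25, all lower, with a log2 difference of -0.87 ± 0.30 (adjusted p = 0.0927). It passed with no filter on low counts (adjusted p = 0.0293) and just passed by DESeq2 (adjusted p = 0.05 after rounding). Among the other paralogs, Eif4a2 had a difference of -0.67 ± 0.28 (adjusted p = 0.165), which passed without TRAP_Snap25 replicate 3 (-0.88, adjusted p = 0.0466). Eef1a1 had 0.47 ± 0.26, Eif5a 0.47 ± 0.25, Eif4g1 0.55 ± 0.25, Eif4a1 -0.09 ± 0.22, Eif1b 0.03 ± 0.21 and Eif1 0.01 ± 0.24, none of which passed.

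The change from input to pulldown was also compared between the lines. None of the 59 members passed by edgeR, where the background was 0.604% higher and 0.44% lower (1.04% in either direction), and DESeq2 and limma voom called 0 as well. An unadjusted p under 0.05 was found for 3 members (background 11.5%). Eef1a2 had a difference of -1.11 ± 0.42 (unadjusted p = 0.0173, adjusted p = 0.289), Eif3a of 1.01 ± 0.38 (unadjusted p = 0.0173, adjusted p = 0.289) and Eef2k of 0.99 ± 0.42 (unadjusted p = 0.0322, adjusted p = 0.364). A member called in 1 line and not in the other is therefore not shown to differ between them. Between the inputs, 0 of 59 members passed by edgeR, DESeq2 or limma voom, and the background was 0%. There 2 had an unadjusted p under 0.05 (background 0.836%), Eif3a and Eif4a1, both lower in PreIP_Chat (Eif4a1 by a log2 difference of -0.56 ± 0.22, unadjusted p = 0.0212). The inputs did not overlap for 3 members higher in PreIP_Chat (Eef1a1, Eif2ak3, Eif4ebp2), with a background of 4.19%, and for 3 lower (Eif1, Eif3a, Eif4a1), with a background of 3.85%.

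Ratios of paralogs within a library need no scaling between libraries. With 3 libraries against 3 the smallest p of the exact permutation test is 0.1, and over the 42 ratio tests the lowest adjusted p was 0.7, so no ratio can pass. Groups that do not overlap always give this p of 0.1, and some of 42 tests would separate without any difference. The log2 count ratio of Eef1a2 to Eef1a1 was -0.53, 0.05 and 0.61 in TRAP_Chat and 0.80, 0.83 and 2.26 in TRAP_Snap25. All Chat values lay below all Snap25 values, with a difference of the means of -1.25 (exact permutation p = 0.1), or -0.77 to -1.54 without any 1 of these libraries. In the inputs the ratios overlapped, at 0.50, 0.13 and -0.15 in PreIP_Chat and 0.89, -0.21 and -0.22 in PreIP_Snap25. The ratio of Eif4a2 to Eif4a1 overlapped between input and pulldown in both lines and between the pulldowns.

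The ratio of Eif4a3, the helicase of the exon junction complex, to Eif4a1 was -0.33, -0.13 and -0.41 in PreIP_Chat and -1.48, -1.54 and -1.96 in TRAP_Chat. All pulldown values were lower, by 1.37 on average (exact permutation p = 0.1). In the Snap25 line it was -0.84, -1.23 and -0.72 before and -1.46, -1.07 and -1.07 after the pulldown, which overlap. The inputs of the lines did not overlap for this ratio, and those of the Chat line were higher by 0.64 (exact permutation p = 0.1). The pulldowns did not overlap either, and those of the Chat line were lower, with a difference of -0.46 (exact permutation p = 0.1). From input to pulldown, the ratio of Eif4e3 to Eif4e in the Snap25 line (-1.29) and of Eif4g2 to Eif4g1 in the Chat line (0.39) also had no overlap. All other ratio tests had overlapping groups.

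**Figure D4:**
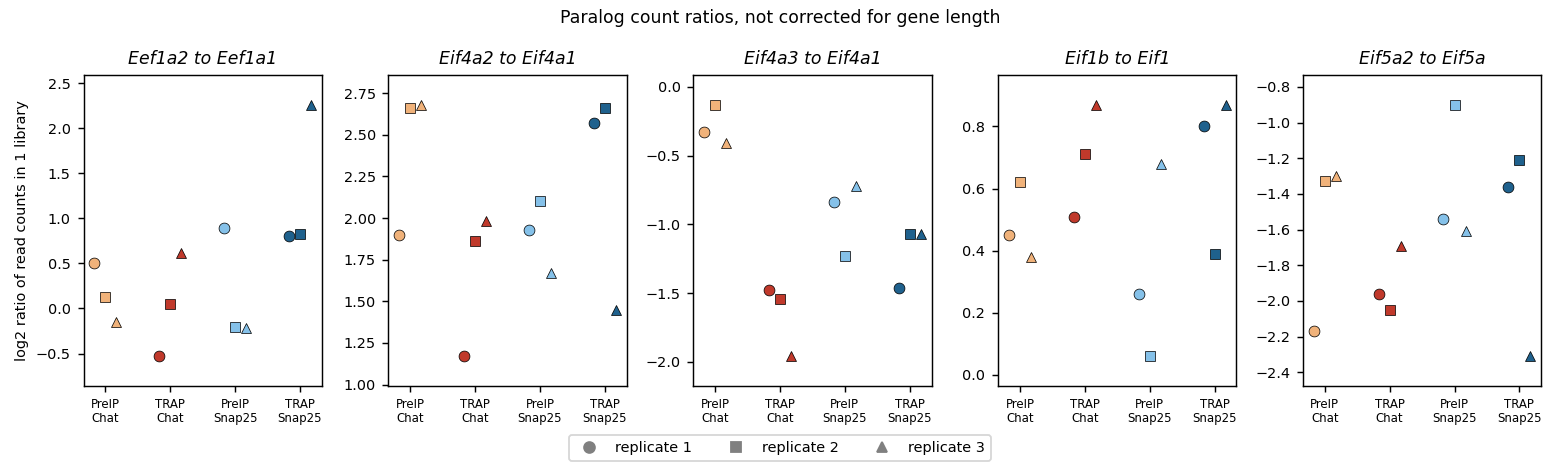
Log2 ratio of the read counts of paralogs within each library (y axis, not corrected for gene length) in the 4 groups (x axis), with symbols for the replicates. For Eef1a2 to Eef1a1 the TRAP_Chat values (-0.53 to 0.61) lie below the TRAP_Snap25 values (0.80 to 2.26), and for Eif4a3 to Eif4a1 the TRAP_Chat values lie below the PreIP_Chat values.

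Some members share sequence with other genes, so that reads could be lost or assigned to a copy. Of the 50-base words in the transcripts of Eef1a1, 39.4% also occur in transcripts of 20 other genes (GENCODE M21). The share was 91.8% for Eif3j2, 65.5% for Eif4ebp3, 44.2% for Eef1g, 36.9% for Eif3j1, 28.4% for Eif4a1 and 20.3% for Eif3h. It was 19.2% for Eif1, 17.2% for Eif3m, 16.5% for Eif4a3, 12.3% for Eif4e3, 10.6% for Eif4a2, 10.2% for Eif2s2 and 8.3% for Eef1b2. Levels and changes of these genes are uncertain to that extent. The share was under 5% for 42 of the 62 members, Eef1a2 (0%) and Eif5a (3.8%) among them.

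Genes that act beside the factors were read from the same fit, with the medians over all tested genes given above. The background for the counts per list was 12.6% higher and 14.3% lower in the Chat line, and 9.69% and 12.7% in the Snap25 line. For an unadjusted p under 0.05 it was 39% and 35.3%. Of 10 other scanning and reinitiation factors, 3 rose and 1 fell in the Chat pulldown, and 3 rose and 2 fell in the Snap25 pulldown (medians 0.23 and 0.04). Mcts1 and Denr, which work as a pair in reinitiation and in clearing tRNA from the small subunit, rose by 1.59 and 1.47 on the log2 scale in the Chat line (adjusted p = 0.00101 and 0.00251) and by 1.65 and 0.98 in the Snap25 line (adjusted p = 0.00116 and 0.0283). Mcts2, a retrogene copy of Mcts1 whose reads may be confused with it, rose by 0.90 and 0.94 (adjusted p = 0.0189 and 0.0183). The calls of Mcts1 in both lines and of Denr in the Chat line held without any 1 library. Denr lost its Snap25 call without PreIP_Snap25 replicate 1 or 2 or TRAP_Snap25 replicate 1 or 2 (adjusted p up to 0.145), with the replicate block (0.0505) and with only the 6 Snap25 libraries fitted (0.0667). Mcts2 lost its call without PreIP_Chat replicate 2 (0.72, adjusted p = 0.111) or TRAP_Chat replicate 2 (0.81, adjusted p = 0.0551) in the Chat line and without PreIP_Snap25 replicate 1 (0.75, adjusted p = 0.0985) in the Snap25 line. Cyfip1, which binds eIF4E with the fragile X protein, fell by 0.91 and 0.93, and Fmr1, which encodes that protein, fell by 1.20 in the Snap25 line (adjusted p = 0.0317, 0.0329 and 0.0317). Cyfip1 lost its call without any 1 library of the 6 compared in the Chat line, and without any 1 of the PreIP_Snap25 libraries or TRAP_Snap25 replicate 2 or 3 in the Snap25 line (adjusted p up to 0.126). Fmr1 lost its call without PreIP_Snap25 replicate 2 or 3 or TRAP_Snap25 replicate 3 (adjusted p up to 0.153). With only the 6 Snap25 libraries fitted, neither passed there (adjusted p = 0.107 and 0.082).

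Of 6 poly(A)-binding proteins and partners, 1 rose and 1 fell in the Chat pulldown, and 1 rose and 2 fell in the Snap25 pulldown (medians -0.10 and -0.27). Pabpc1, the cytoplasmic poly(A)-binding protein that bridges to Eif4g1, fell by 0.85 in the Chat line (1.81-fold, adjusted p = 0.0158) and by 1.36 in the Snap25 line (2.57-fold, adjusted p = 0.00139). The Snap25 call held without any 1 library, and the Chat call was lost without PreIP_Chat replicate 3 (-0.77, adjusted p = 0.0653) or TRAP_Chat replicate 2 (-0.66, adjusted p = 0.0907). Pabpn1, the nuclear poly(A)-binding protein, fell by 2.43 in the Snap25 line (adjusted p = 0.0151), with -1.95 (adjusted p = 0.0884) without PreIP_Snap25 replicate 2 and -2.14 (adjusted p = 0.0506) without TRAP_Snap25 replicate 1. Paip2, which inhibits the poly(A)-binding protein, rose by 0.88 and 0.72 (adjusted p = 0.0161 and 0.0477). Its Snap25 call was lost when any 1 of 11 of the 12 libraries was left out, replicate 3 of TRAP_Snap25 being the exception, and also with the replicate block (adjusted p = 0.0579), with no filter on low counts (0.066) and with only the 6 Snap25 libraries fitted (0.117). It lost its Chat call without PreIP_Chat replicate 1 or 2 (adjusted p = 0.069 and 0.0579).

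Of 6 release and recycling factors, 3 rose in the Chat pulldown and 1 in the Snap25 pulldown (medians 0.67 and 0.30). Hbs1l, a GTPase that rescues stalled ribosomes, rose by 1.27 in the Chat line (2.41-fold, adjusted p = 0.00199), a call that held without any 1 library. Pelo, its partner, rose by 1.14 in the Snap25 line (adjusted p = 0.0221), a call lost without PreIP_Snap25 replicate 1 or 2 or TRAP_Snap25 replicate 1 (adjusted p up to 0.111) and with only the 6 Snap25 libraries fitted (adjusted p = 0.0617). In the Chat line Abce1, which splits ribosomes, and Etf1, which reads stop codons, rose by 0.88 and 0.71 (adjusted p = 0.0443 for both). Abce1 lost its call without any 1 of 8 libraries, the 6 inputs and TRAP_Chat replicates 1 and 2 (adjusted p up to 0.156). Etf1 lost it without any 1 of 7, the 6 inputs and TRAP_Chat replicate 2 (adjusted p up to 0.167), and with no filter on low counts (0.0853).

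Of 10 tested genes of the integrated stress response, which is set off when eIF2 is phosphorylated, 1 rose and 1 fell in the Chat pulldown, and 4 rose and 1 fell in the Snap25 pulldown (medians 0.10 and 0.02). Asns, an ATF4 target that makes asparagine, rose by 0.74 in the Chat line (adjusted p = 0.0191) and by 1.03 in the Snap25 line (adjusted p = 0.00398). Its Snap25 call held without any 1 library, and its Chat call was lost without any 1 of the PreIP_Chat libraries or TRAP_Chat replicate 1 (adjusted p up to 0.0724) and with no filter on low counts (0.0509). Ppp1r15b, which helps dephosphorylate eIF2, fell by 1.11 and 1.18 (adjusted p = 0.0211 and 0.0194). It lost these calls without PreIP_Chat replicate 1 or 3 or TRAP_Chat replicate 1 or 2, and without PreIP_Snap25 replicate 2 or TRAP_Snap25 replicate 1 or 2 (adjusted p up to 0.103 and 0.08). Impact, an inhibitor of the kinase Eif2ak4 that is abundant in neurons, was the gene of these lists called between the pulldowns. It was lower in TRAP_Chat by a log2 difference of -1.39 (2.63-fold, adjusted p = 0.00112), also without any 1 library. In the Snap25 line it rose by 0.78 (adjusted p = 0.0183), a call lost without PreIP_Snap25 replicate 1 or 3 or TRAP_Snap25 replicate 2 (adjusted p up to 0.0898) and with only the 6 Snap25 libraries fitted (0.0633).

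Of 10 tested genes that carry mTORC1 signals to translation, 2 rose in the Chat pulldown and 0 were called in the Snap25 pulldown by edgeR, where 1 had an unadjusted p under 0.05 (medians 0.23 and 0.12). Rheb, the GTPase that activates mTORC1, rose by 1.03 in the Chat line (adjusted p = 0.00816), also without any 1 library. Rps6kb1, an S6 kinase, rose by 0.88 (adjusted p = 0.042), a call lost without any 1 of the PreIP_Chat libraries, PreIP_Snap25 replicate 1 or TRAP_Chat replicate 2 or 3 (adjusted p up to 0.129). Of 8 enzymes that modify eIF5A or eEF2, 1 rose in the Chat pulldown and 0 were called by edgeR in the Snap25 pulldown, where 3 had an unadjusted p under 0.05 (medians 0.39 and 0.53). Dph3, needed for diphthamide on eEF2, rose in the Chat line by 0.78 (adjusted p = 0.0168), with an adjusted p of 0.0642 and 0.0933 without PreIP_Chat replicate 1 and 2. Of 9 factors of mitochondrial translation, 2 rose in the Chat pulldown and 3 in the Snap25 pulldown, and 0 fell (medians 0.41 and 0.75). Tsfm, the exchange factor of the mitochondrial elongation factor, rose by 1.44 and 1.65 (adjusted p = 0.00341 and 0.00195), and Mrrf, which recycles mitochondrial ribosomes, by 0.99 and 1.11 (adjusted p = 0.00622 and 0.00415). These 4 calls held without any 1 library.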

How the data were processed

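The authors deposited raw read counts per Ensembl gene for 12 libraries of mouse spinal cord, which the submitters' processing notes tie to STAR and HTSeq. Per the labels' protocols, cDNA was amplified with a Nugen Ovation kit and sequenced on a HiSeq2500. Neither the labels nor the file header name versions, a genome build, an annotation or a strand setting, so reads over overlapping genes are uncertain. Of 41736 lines, 824 that repeat another line were dropped. Groups came from the sample titles. Within a line, each pulldown and the input of the same number carry the same tag in their description labels, which do not say what the tag marks, and they were taken as a pair in the replicate block. Their deviations from the group means correlated by 0.06, 0.10 and 0.13 in the Chat line and by -0.04, 0.17 and 0.15 in the Snap25 line.

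These counts went into edgeR 4.0.16 (R 4.3.3): filterByExpr on low counts, TMM scaling, 1 mean per group over all 12 libraries (glmQLFit, glmQLFTest), two-sided, with Benjamini-Hochberg adjustment over 15905 genes. Log2 fold changes carry the standard error of that fit. Paralog ratios were compared by a two-sided exact permutation test. Alternatives were RLE scaling, DESeq2 1.42.0, limma 3.58.1 with voom, no filter, only the groups compared, protein-coding nuclear genes only, a replicate block, each library left out and a pseudocount of 0.5 for ratios. A fit that leaves 2 libraries in a group shares the spread of all groups. The pipeline was tested on simulated data with 100 genes changed 2-fold and 100 changed 4-fold. Of the 2-fold changes, 5% were recovered in the Chat pulldown, 15% in the Snap25 pulldown, 6% between the pulldowns and 1% between the lines. For 4-fold changes it was 63%, 65%, 73% and 27%. Far more genes were called in the real data, so these rates need not hold there. A change of 2-fold or less that did not pass is thus not shown to be absent.

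The members and lists were chosen with earlier results of these data known. Named genes are the main paralogs with Eef2, Eef2k, Eif4e, Eif4g1 and Eif2s1, called members (the 8 largest each way from input to pulldown), up to 2 per role and direction, and up to 2 per pathway list and direction. Eif2ak1, Eif2b5, Eif3i, Eif4b, Eif5b, Eif4ebp1, Eif4a3, Eif1ad, Eif2b4, Eif3f and Eif4ebp2 where they did not pass, Mcts2 and Etf1 in the Chat line, Denr in the Snap25 line and Eef2kmt, Trem2 and the genes with no overlap between the pulldowns were named after their values were seen. The same holds for the ratios of Eif4e3 and Eif4g2. Start windows and promoter shares are from RefSeq (GRCm38.p6), which held 48 of the 62 members, and 56 of 63 member starts were found in GENCODE M21 transcripts. Exon lengths and shared words are from GENCODE M21, which held all 62.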

Additional observations from a re-analysis of the deposited data

How the results depend on the processing

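Among the counts of called members, 12 higher in the Chat pulldown stayed within 1.5 times under every alternative that kept all 12 libraries or only the groups compared, and the counts for the difference between the lines and for the inputs stayed at 0. Of all tested genes 7.43% to 16% were higher in the Chat pulldown in these fits. With only the groups compared, 2 members were lower in the Chat pulldown (Eef1a2, Eef2), where 16.5% of all tested genes were lower. There were 2 higher in the Snap25 pulldown (all tested genes 6.07%) and 0 higher in TRAP_Chat against TRAP_Snap25 (all tested genes 1.68%). DESeq2 called 9 higher and 2 lower in the Snap25 pulldown (all tested genes 11.8% and 15.3%). It called 2 higher and 1 lower in TRAP_Chat against TRAP_Snap25 (all tested genes 6.46% and 4.69%). Limma voom called 3 lower in the Snap25 pulldown (all tested genes 15.1%) and 2 higher in TRAP_Chat against TRAP_Snap25 (all tested genes 4.28%). With no filter on low counts, 2 were lower in the Snap25 pulldown (all tested genes 9.3%) and 1 lower in TRAP_Chat against TRAP_Snap25 (all tested genes 2.54%). The cause of these shifts was not tested.

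With each library left out in turn, the Chat pulldown had 3 to 16 members higher and 0 to 2 lower, and the Snap25 pulldown 2 to 11 higher and 0 to 3 lower. TRAP_Chat against TRAP_Snap25 had 0 to 3 higher and 0 to 1 lower. The 16, 11 and 2 came without TRAP_Snap25 replicate 3. Over these fits 7.23% to 14.3% of all tested genes were higher and 9.39% to 16.7% lower in the Chat pulldown. In the Snap25 pulldown the shares were 4.1% to 10.2% and 7.89% to 14%, and between the pulldowns 2.14% to 5.8% and 1.61% to 3.46%. The upper end of each range also came without TRAP_Snap25 replicate 3. No called member changed its sign under any alternative. Values near 0 that did were Eif1 in TRAP_Chat against TRAP_Snap25 (-0.01 with only the groups compared and with protein-coding nuclear genes only) and, with a library left out, Eif4g1 in the Chat pulldown (-0.03 to 0.20) and Eef2 (-0.44 to 0.18) and Eif2s1 (-0.09 to 0.32) in the Snap25 pulldown. In TRAP_Chat against TRAP_Snap25 they were Eef2 (-0.48 to 0.14), Eif1 (-0.19 to 0.23), Eif1b (-0.09 to 0.11), Eif2s1 (-0.38 to 0.09), Eif4a1 (-0.19 to 0.05) and Eif5a2 (-0.10 to 0.45).

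With the replicate block, which pairs each pulldown with its input, 12 members were higher in the Chat pulldown, 11 of them called without it too (Eef1e1 was lost and Eif2b5 gained). In the Snap25 pulldown 6 were higher, the 5 called without it and Eif3i, and 3 lower, Eif3a with Eif4ebp2 and Eif5b. The block changed no other call of a member. With it 12.5% of all tested genes were higher and 15.4% lower in the Chat pulldown, and 9.71% and 13.3% in the Snap25 pulldown. Between lines the same number is not known to mark anything shared, so the block there, which kept 1 higher and 0 lower in TRAP_Chat against TRAP_Snap25, rests on the number alone. The tag of Chat replicate 2 has the same ending as that of Snap25 replicate 1, and a block by number does not join these. What that ending marks is not stated. The difference between the lines has no separate fit with only the groups compared, since it uses all 4 groups. Depth limits Eif4ebp1, with 0 to 107 counts per library.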
